A study of Mus musculus with 41 samples.

Results

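Choroid plexus RNA was unevenly present in a set of 41 hippocampus arrays, and the arrays that carried much of it are described here against those that carried little. For each array a choroid score was taken as the mean level of Folr1, Clic6, Kcnj13, Sostdc1 and Calml4, 5 genes that mark the choroid plexus epithelium. The 11 arrays of highest score, called choroid-rich, were set against the other 30, called choroid-poor. The groups were therefore selected on measured values of the same arrays, so every difference between them is a description and carries no test.

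Each array held hippocampal RNA of 1 male mouse of the inbred strain C57BL/6J, with no genetic change and no drug. Behavioural testing began at 10 weeks of age, the last of 5 cognitive tests was run in weeks 37 to 38, and RNA was taken 1 month later. The labels rank 5 mice as high in cognition, 12 as medium and 8 as low, call 14 mice inconsistent because 2 ranking systems disagreed, and list 2 with incomplete data. The label of inconsistent mouse 2 also calls it consistently medium, and it was kept as inconsistent here. Each mouse is named by its label and number. Because whole tissue was measured, fewer cells of a type and less RNA per cell cannot be told apart in any value below.

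The choroid plexus is a fold of secretory epithelium on a fenestrated, vascular stroma that hangs into the brain ventricles and makes cerebrospinal fluid. Its cells carry ion pumps, bicarbonate carriers and water channels that move fluid, export carrier proteins such as transthyretin, are sealed by tight junctions and bear tufts of cilia. In the lateral ventricle it lies along the fimbria of the hippocampus.

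Levels are given as log2(intensity + 16) after quantile normalization over the 41 arrays, a scale on which 1 unit is about a 2-fold difference for bright genes and less than the true fold for dim ones. The score ran from 7.86 through a median of 9.09 to 9.47 in the choroid-rich arrays, against 5.24 through 5.89 to 6.47 in the choroid-poor arrays. Medium mouse 5 was the last array inside the choroid-rich group at 7.86, and low mouse 4 was the first outside it at 6.47. Of the score genes, the potassium channel Kcnj13 was 3.59 higher in choroid-rich arrays, the chloride channel protein Clic6 3.58, the folate receptor Folr1 3.45, the calmodulin-like Calml4 2.46 and the BMP and WNT inhibitor Sostdc1 2.39. These differences are what the rule used.

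**Figure D1:**
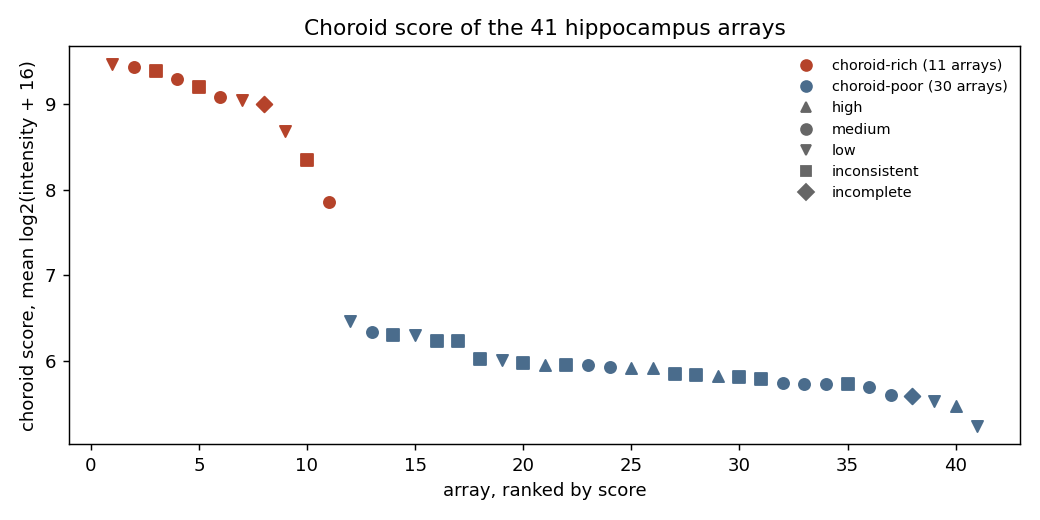
The choroid score (y axis, mean log2 level of 5 genes) is plotted for the 41 arrays in order of score (x axis), with the 11 choroid-rich arrays in red at the left, the 30 choroid-poor arrays in blue, and the marker giving the label of the mouse. The choroid-rich arrays lie between 7.86 and 9.47 and the choroid-poor arrays between 5.24 and 6.47, and all 5 high mice are choroid-poor.

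By label, the choroid-rich arrays held 0 of 5 high, 4 of 12 medium, 3 of 8 low, 3 of 14 inconsistent and 1 of 2 incomplete mice. No batch is given in the labels. The arrays were clustered by their spike-in controls, RNAs of bacteria and phage added to each sample, into 3 groups, a number that was set and not found. These groups are called spike-in batches here, and whether they were processed apart is not known. The first held 3 choroid-rich arrays among 7, the second 2 among 10 and the third 6 among 24. RNA quality measures overlapped: the difference between the 5′ and 3′ control probe sets of Gapdh ran from 0.38 to 0.54 in choroid-rich and from 0.31 to 0.60 in choroid-poor arrays. The median deposited intensity ran from 28.5 to 53.4 in choroid-rich and from 22.4 to 55.2 in choroid-poor arrays. Medium mouse 9, a choroid-poor array, stood apart from the other 40. Its Actb control probe sets differed by -1.10 (5′ minus 3′), against -0.61 to -0.42 in the others, and its middle control probe set of ribosomal RNA was at 9.50, against 4.36 to 7.36. The dentate genes Prox1 and C1ql2 were at 5.59 and 5.81 there, against lowest values of 7.01 and 8.45 in the others, and the cortical gene Lamp5 was at 11.21, against a highest value of 9.53.

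Of 22519 probe sets in the brighter part of the array, 138 were 0.5 or more higher in the choroid-rich arrays (0.613%), and 3 were 0.5 or more lower (0.0133%). A weaker loss of 0.25 or more was seen for 72 (0.320%). Without medium mouse 9 the counts were 142, 2 and 73. The brightness filter used the mean level over all 41 arrays, so some probe sets passed it only through the choroid-rich arrays. Pifo passed at a mean of 5.80 with a choroid-poor mean of 5.52, below the mean of 5.73 at which Prr32 failed. The counts of higher probe sets and genes that passed contain such members, and they are not weighed against the losses. With no filter 263 probe sets were 0.5 or more higher and 5 lower. In 54 probe sets every choroid-rich array lay above every choroid-poor one (0.240%), and in 0 did every choroid-rich array lie below. Counting each of 18193 genes once, at its brightest probe set and with dim ones included, 161 were 0.5 or more higher (0.885%) and 52 showed no overlap between the groups (0.286%). These counts contain the 5 score genes, which leaves 156 higher genes to describe. All measured genes together had a median difference of -0.01. Of 73 measured genes on 3 choroid lists other than the score (secreted proteins, ion carriers and solute carriers), 31 were 0.5 or more higher, with a median of 0.36. The choroid lists of receptors and of transcription factors were left out of this sum and had lower medians, 0.18 and 0.03.

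The secreted and carrier proteins of the choroid plexus had the highest median of the choroid lists examined. Of 23 measured members 13 were 0.5 or more higher, 7 of them with no overlap, and the median difference was 0.69. Ecrg4, a secreted peptide precursor made by choroid plexus epithelium, ran from 9.08 through 10.15 to 10.46 in choroid-rich arrays, against 5.32 through 6.08 to 6.63 in choroid-poor arrays. With each gene read at its brightest probe set, its difference of 3.97 was the largest on this scale. A dimmer probe set of Ttr, described below, differed by 4.30. With an offset of 1 in place of 16, the dimmer Kcne2 was higher, at 5.00 against 4.35 for Ecrg4. The anti-ageing protein klotho (Kl), which choroid plexus sheds into cerebrospinal fluid, ran from 8.01 through 9.01 to 9.54 in choroid-rich arrays, against 5.34 through 6.66 to 6.98 in choroid-poor arrays, a difference of 2.27. The 5.34 was medium mouse 9, and all other choroid-poor arrays were at or above 6.22. The lipopolysaccharide-binding protein Lbp was 1.82 higher and the insulin-like growth factor binder Igfbp2 1.59 higher, both without overlap. The growth factor Igf2 ran from 8.53 through 9.24 to 9.51 in choroid-rich arrays, against 6.81 through 7.70 to 8.64 in choroid-poor arrays, so that its 1.44 difference came with 2 choroid-poor arrays above the lowest choroid-rich one. Pcolce2, an enhancer of procollagen processing, was 1.03 higher and the ligand Bmp6 0.84 higher. Dimmer probe sets of Kl, Lbp and Igf2, at mean levels of 4.15, 4.42 and 4.61, differed by 0.01, 0.47 and 0.39. Those of Ecrg4 were 3.36 and 1.90 higher.

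Transthyretin (Ttr), the carrier of thyroid hormone and of the retinol complex in cerebrospinal fluid, is the secreted protein best known from this tissue. It lay between 13.21 and 13.40 in all 11 choroid-rich arrays, against 7.72 through 10.41 to 12.35 in the choroid-poor arrays. These choroid-rich levels were near the top of the scale, where the highest level of any probe set was 13.50. All 4 Ttr probe sets lay between 12.96 and 13.40 in the choroid-rich arrays, within 0.11 to 0.36 of each other in an array, against a spread of 0.96 to 1.79 among them in the choroid-poor arrays. The difference of 2.92 is therefore given as a lower bound, and no order among the choroid-rich arrays is read from Ttr. Within the 30 choroid-poor arrays its correlation with the score was 0.90 (0.91 without the 2 arrays farthest from the median score). In the 6 choroid-poor arrays with scores of 6.23 to 6.47, Ttr was at 11.83 to 12.35, and in the 3 arrays of lowest score, low mouse 2, high mouse 4 and low mouse 5, it was at 7.72, 8.50 and 8.29. A dimmer Ttr probe set ran from 12.96 to 13.32 in choroid-rich arrays, against 6.51 to 10.78 in choroid-poor arrays, a difference of 4.30. Both probe sets thus spread over more than 4 log2 units among arrays that the score calls choroid-poor.

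Carriers of ions and water came next. Of 22 measured members 9 were higher by 0.5 or more, 4 without overlap, and the median difference was 0.29. The potassium channel subunit Kcne2 ran from 7.09 through 8.37 to 8.85 in choroid-rich arrays, against 4.10 through 4.59 to 5.14 in choroid-poor arrays, a difference of 3.54. The water channel Aqp1 ran from 5.81 through 7.18 to 7.47 in choroid-rich arrays, against 4.13 through 4.78 to 5.18 in choroid-poor arrays, a difference of 2.33. The bicarbonate carrier Slc4a5 was 2.29 higher without overlap, the anion exchanger Slc4a2 1.12 higher, and the carbonic anhydrase Car14 1.06 higher. Kcne2, Aqp1 and Slc4a5 were dim in the choroid-poor arrays and below the brightness filter over all 41, so they enter the count of genes but not that of probe sets.

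Carriers of nutrients and organic solutes had 9 of 28 measured members higher, 4 without overlap, with a median of 0.19. The metalloreductase Steap1 ran from 6.55 through 7.76 to 8.11 in choroid-rich arrays, against 4.15 through 4.90 to 5.49 in choroid-poor arrays, a difference of 2.68. The retinoid flippase Abca4 was 2.46 higher and the hexose carrier Slc2a12 1.94 higher, also without overlap. The sulfate carrier Slc13a4 was 2.05 higher, but 2 choroid-poor arrays lay above the lowest choroid-rich one.

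Few of the transcription factors listed for the choroid plexus were higher: 3 of 20 measured, with a median of 0.03. Otx2, the homeodomain factor that choroid plexus development requires, ran from 6.32 through 7.60 to 7.74 in choroid-rich arrays, against 4.04 through 4.83 to 5.47 in choroid-poor arrays, a difference of 2.57. Msx1, another homeodomain factor, was 0.78 higher without overlap. The zinc finger factor Zic1, which meningeal cells, thalamus and cerebellum also express, was 0.59 higher, with 16 choroid-poor arrays above the lowest choroid-rich one. Foxj1, which drives motile cilia, differed by 0.45.

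Upstream DNA of the higher genes is shown for the letters TAATCC, which homeodomain factors of the OTX class are known to bind. In the 250 bases before the start of a gene, RefSeq sequence on GRCm38.p6, TAATCC or its reverse complement GGATTA was present in 7 of the 46 genes with a window among the 54 that were 1 or more higher (15.2%), against 1949 of 27025 genes of the whole table (7.21%). A gene with several windows counts if any of them matches. Per window the shares were 10.4% and 6.25%. Among genes 0.5 or more higher the letters were in 11.2% of genes and 8.70% of windows. Of the 7, 4 are printed, for Otx2 itself, Abca4, Vat1l and Car14, each as 120 bases on the strand of the gene with the match in capitals.
Otx2, chr14:48665240-48665359, minus strand: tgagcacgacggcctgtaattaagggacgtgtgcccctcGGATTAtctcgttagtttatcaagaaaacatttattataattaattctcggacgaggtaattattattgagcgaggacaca
Abca4, chr3:122044340-122044459, plus strand: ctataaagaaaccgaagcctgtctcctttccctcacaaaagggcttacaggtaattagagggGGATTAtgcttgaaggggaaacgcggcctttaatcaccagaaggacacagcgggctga
Vat1l, chr8:114205504-114205623, plus strand: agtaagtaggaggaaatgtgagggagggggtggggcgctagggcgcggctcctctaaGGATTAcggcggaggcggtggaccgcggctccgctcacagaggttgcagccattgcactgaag
Car14, chr3:95904686-95904805, minus strand: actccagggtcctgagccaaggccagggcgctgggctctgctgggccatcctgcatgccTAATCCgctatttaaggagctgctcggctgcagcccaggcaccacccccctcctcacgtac
The forkhead letters GTAAACA were present in 1 of the 46 (2.17%, against 3.54% of all genes), and GTTGCCA, the half-site of RFX factors, in 3 (6.52%, against 4.19%). Windows differ in number between genes, and these matches are letters and not measured binding.

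Receptors and signalling genes had 8 of 24 measured members higher, 3 without overlap, with a median of 0.18. F5, known as coagulation factor V, ran from 6.75 through 7.91 to 8.50 in choroid-rich arrays, against 4.43 through 4.79 to 5.46 in choroid-poor arrays, a difference of 3.00. The calcium channel Trpv4 was 1.06 higher. The serotonin receptor Htr2c, which is dense on choroid plexus but is also made by neurons, ran from 9.34 through 9.94 to 10.04 in choroid-rich arrays, against 8.82 through 9.20 to 9.45 in choroid-poor arrays, a difference of 0.62.

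Epithelial junction and keratin genes had 8 of 26 measured members higher, 2 without overlap, with a median of 0.21. The pore-forming tight junction protein Cldn2 ran from 6.44 through 7.80 to 8.14 in choroid-rich arrays, against 4.26 through 4.79 to 5.37 in choroid-poor arrays, a difference of 2.89. The keratin Krt18 was 1.71 higher, the barrier claudin Cldn1 1.18 higher and the desmosome-associated Perp 0.94 higher. Dimmer Cldn1 probe sets differed by 0.79, 0.01 and -0.04. Of 15 basement membrane and matrix genes 5 were higher, 1 without overlap: the short-chain collagen Col8a1 was 2.44 higher, and Col9a3 1.56 higher with 2 choroid-poor arrays above the lowest choroid-rich one. Dimmer probe sets of Col8a1 were 1.31 and 0.61 higher, and those of Col9a3 1.82 and 0.22. At the brightest Col8a1 probe set the highest choroid-poor array was medium mouse 9 at 6.25, with all other choroid-poor arrays at or below 5.35.

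Genes of the ciliary axoneme had smaller differences than the carriers and junctions. Of 35 measured, 7 were 0.5 or more higher and 30 were above 0, with a median of 0.14. Pifo, a regulator of primary cilium disassembly, ran from 6.06 through 6.53 to 6.96 in choroid-rich arrays, against 5.02 through 5.55 to 5.95 in choroid-poor arrays, a difference of 1.04 and the only ciliary gene without overlap. Cfap126 was 0.73 higher, the dynein light chain Dynlrb2 0.71 and the radial spoke gene Rsph1 0.68. Ependymal cells, which line the ventricle and also bear motile cilia, share many of these genes. Of 19 measured genes on the ependymal list 3 were higher, namely Calml4, which is a score gene, Wdr63 at 0.61 and Mia at 0.59.

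**Figure D2:**
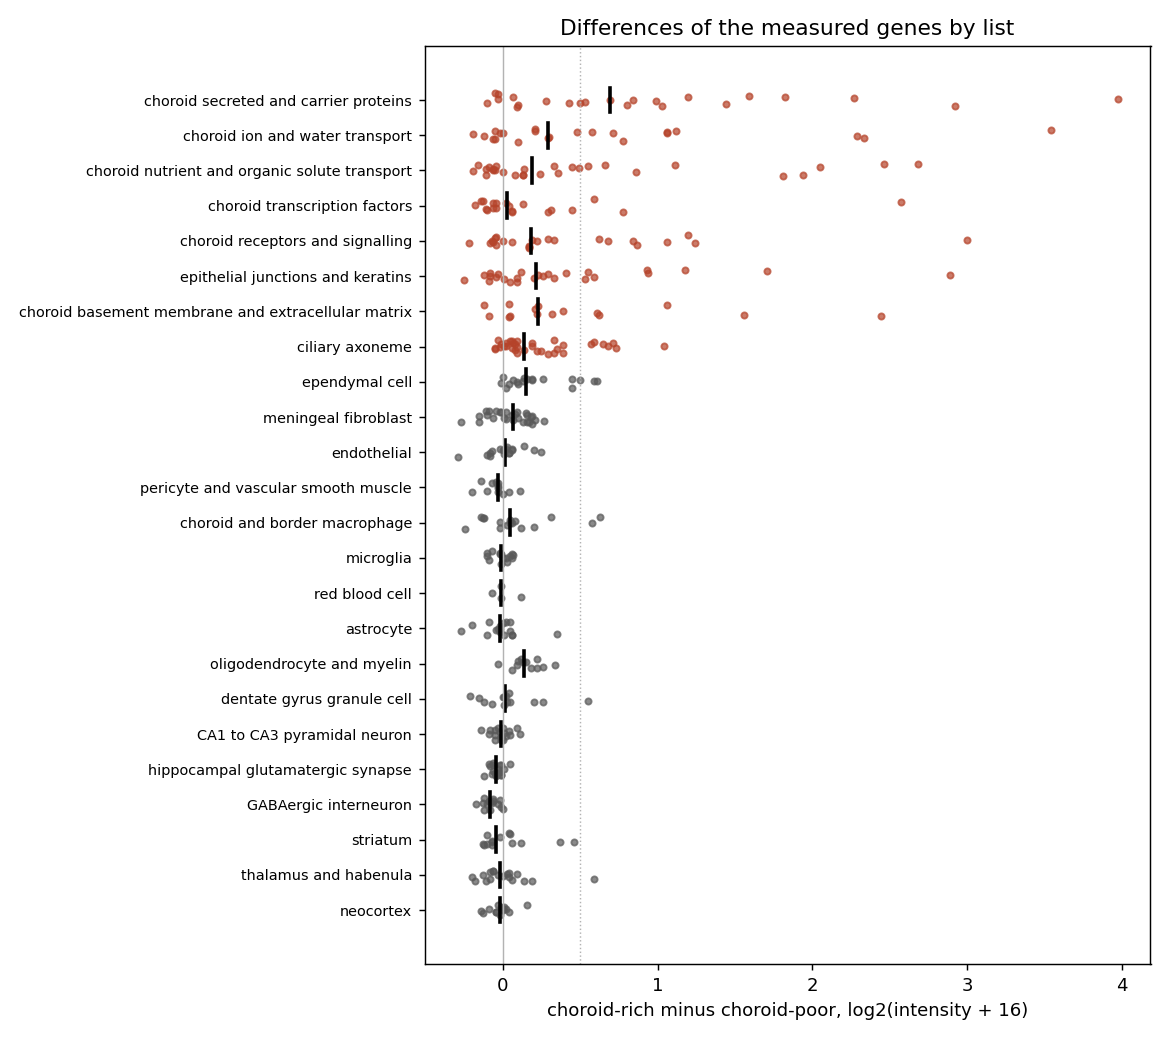
Each point is 1 gene and its choroid-rich minus choroid-poor difference (x axis, log2), grouped by gene list (y axis), with score genes left out, the median as a black bar, a dotted line at 0.5 and the lists of choroid, epithelial and ciliary genes in red (the lists of BMP and TGF-beta, insulin-like growth factor, and thyroid hormone and retinoid genes are not drawn). Single members of the carrier, junction and matrix lists lie above 2, up to 3.97 for Ecrg4, while the highest member of the grey lists drawn is H2-Ab1 at 0.63.

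Some genes outside all lists were also higher. The heparan sulfate editing enzyme Sulf1 was 1.95 higher, the procollagen enhancer Pcolce 1.52, the transcriptional regulator Mdfic 1.26, the cell cycle inhibitor Cdkn1c 1.18, the peroxidase Gpx8 1.17 and the leukotriene synthase Ltc4s 1.08. Dimmer Sulf1 probe sets differed by 1.27 and 0.00, and a dimmer Pcolce probe set by 1.03. Among genes below the brightness filter, the cytochrome oxidase subunit Cox8b was 2.77 higher and Prr32 2.37 higher, both without overlap. Those 2 were picked after their values had been seen.

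The higher genes were not alike in how they followed the score among the choroid-rich arrays. Across the 156 genes the median correlation with the score was 0.77 within the 11 choroid-rich arrays, against -0.02 for all measured genes, and 0.19 within the 30 choroid-poor arrays, against -0.00 for all measured genes. Points of a correlation share their arrays, normalization and probe sets, so these are descriptions. Without medium mouse 5 and inconsistent mouse 10, the 2 arrays farthest from the choroid-rich median, the median correlation was 0.58, and 140 of 156 correlations were above 0. The 3 choroid-rich arrays of lowest score, low mouse 6, inconsistent mouse 10 and medium mouse 5, had Ecrg4 at 9.48, 9.13 and 9.08, below the 10.00 to 10.46 of the other 8. They had Otx2 at 6.92, 6.84 and 6.32, below the 7.31 to 7.74 of the other 8. Igf2 was at 9.36, 8.59 and 8.53 there, so that low mouse 6 lay within the 9.05 to 9.51 of the other 8. Among genes outside the lists that passed the brightness filter, Vat1l (r = 0.97 within the choroid-rich arrays), Sulf1 (0.96), Cdr2 (0.95), Zfp185 (0.94) and Ltc4s (0.92) lay closest to the score. Without those 2 arrays their values were 0.89, 0.82, 0.83, 0.82 and 0.77. Correlations near 0 were also seen: Zic1 had r = 0.09, and the antigen-presentation genes H2-Aa and H2-Ab1 had 0.10 and 0.01.

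**Figure D3:**
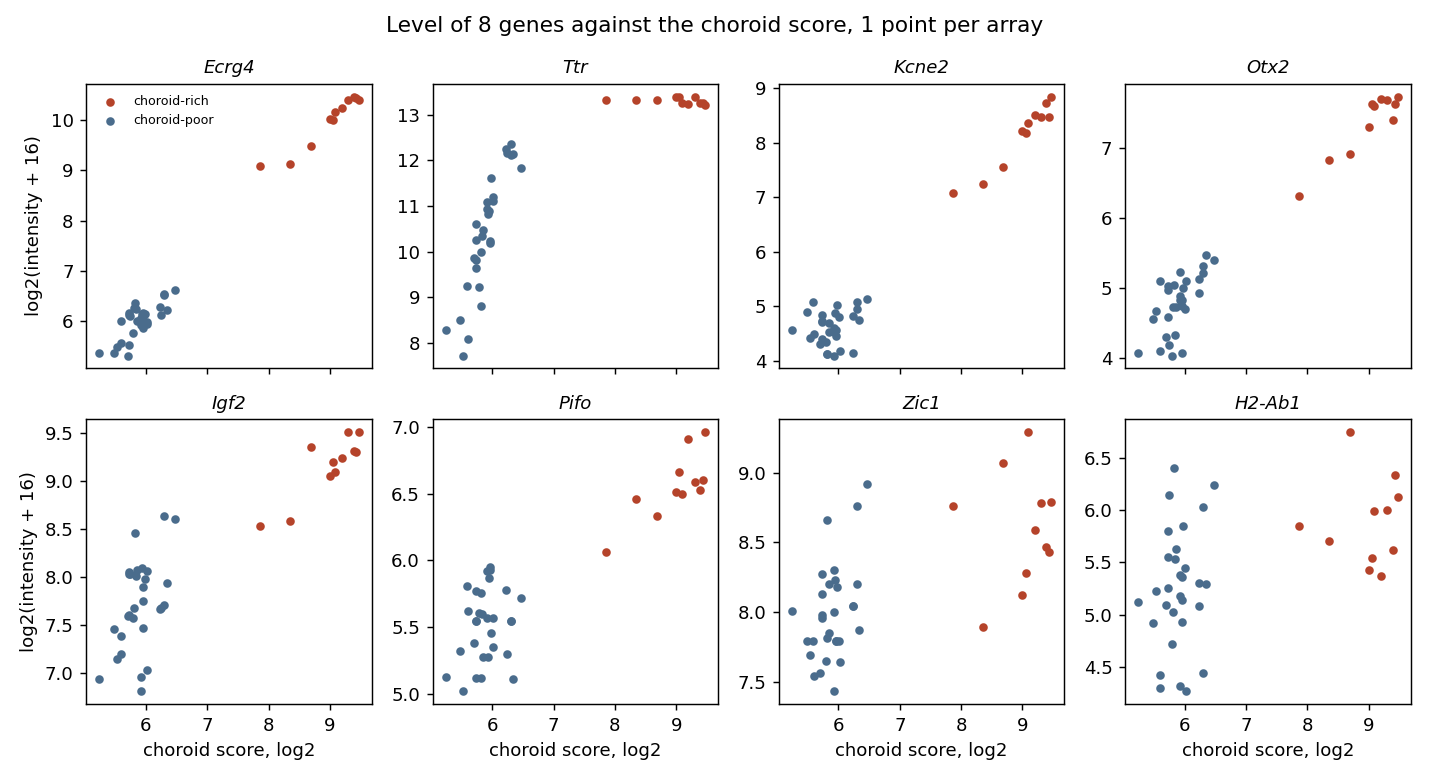
The level of 8 genes (y axes, log2(intensity + 16)) is set against the choroid score (x axes), with 11 choroid-rich arrays in red and 30 choroid-poor arrays in blue. Ecrg4, Kcne2 and Otx2 rise along the red points, Ttr lies near the top of the scale at 13.21 to 13.40 there and spreads from 7.72 to 12.35 among the blue points, and Zic1 and H2-Ab1 overlap widely.

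Some of the higher genes also correlated with meningeal markers. The mean of 28 meningeal fibroblast genes ran from 6.85 through 7.11 to 7.78 in choroid-rich arrays, against 6.79 through 7.07 to 7.67 in choroid-poor arrays, and 0 of the 28 were 0.5 or more higher. The defining fibroblast gene Dcn ran from 9.67 through 9.96 to 10.34 in choroid-rich arrays, against 8.42 through 10.03 to 10.54 in choroid-poor arrays. The 8.42 was medium mouse 9, and all other choroid-poor arrays were at or above 9.49. Across the 156 higher genes, the correlation with this mean within the choroid-poor arrays had a median of 0.17, and 9 genes had 0.7 or more: Slc6a20a (0.94), Slc13a4 (0.92), Pcolce (0.89), H2-Aa (0.89), Igf2 (0.86), Zic1 (0.86), Bmp6 (0.79), Perp (0.78) and Igfbp2 (0.77). These 9 are 5.77% of the 156, beside 42 of 18165 measured genes outside the meningeal list (0.231%). Slc6a20a, an amino acid carrier, was named after its values had been seen. Within the choroid-rich arrays Slc6a20a (0.88) and H2-Aa (0.76) kept 0.7 or more, whereas Igf2 had 0.03 and Igfbp2 -0.15, beside correlations with the score of 0.87 and 0.94 (0.43 and 0.78 without the 2 farthest arrays). Among choroid-poor arrays high mouse 2, low mouse 4 and inconsistent mouse 4 had the highest meningeal means, at 7.67, 7.67 and 7.62. The same 3 arrays had Slc13a4 at 7.10, 6.73 and 7.02, above a choroid-poor median of 5.47. The part of meningeal tissue in these differences was not tested.

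Vascular and immune markers showed little difference. None of 18 endothelial genes was 0.5 or more higher (median 0.02), and the endothelial claudin Cldn5 ran from 8.21 to 8.54 in choroid-rich and from 7.74 to 8.61 in choroid-poor arrays. Of 12 pericyte and smooth muscle genes 0 were higher (median -0.03), and of 15 microglial genes 0 (median -0.01). Of 16 genes of choroid and border macrophages 2 were higher, H2-Ab1 by 0.63 and H2-Aa by 0.58, with 11 and 22 choroid-poor arrays above the lowest choroid-rich one. Of 4 measured red blood cell genes 0 were higher.

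Markers of hippocampal neurons and glia differed little. Of 19 glutamatergic synapse genes 0 were 0.5 or more different, 2 were above 0 and the median was -0.04, with Camk2a, the kinase of excitatory synapses, at -0.03. Of 15 GABAergic interneuron genes 0 were above 0, the lowest was Vip at -0.17 and the median was -0.08. For all measured genes 7777 of 18193 were above 0. The granule cell factor Prox1 differed by 0.01 and 1 of 14 dentate genes was higher, Spint2 (0.55), a protease inhibitor also on the epithelial list. Of 19 pyramidal neuron genes 0 were higher (median -0.01), and likewise 0 of 17 astrocyte genes (median -0.02), with Gfap at 0.06. The astrocyte genes ran from Gjb6 at -0.27 to Slc7a10 at 0.35. Of 12 oligodendrocyte and myelin genes 11 were above 0 and none reached 0.5 (median 0.14), led by Opalin at 0.34, while Mbp was at -0.03. Among markers of neighbouring regions, 0 of 14 striatal, 0 of 14 neocortical and 1 of 18 thalamic and habenular genes were 0.5 or more higher, the last being Zic1. The striatal list had a median of -0.04 with 6 genes above 0, of which Ppp1r1b was at 0.46 and Six3 at 0.37.

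Gene families that the choroid plexus handles were split. Of 22 BMP and TGF-beta ligands and inhibitors 2 were higher, Bmp6 (0.84) and Bmp7 (0.53), while the activin inhibitor Fst was at -0.33. Of 14 genes of the insulin-like growth factor axis 3 were higher: Igfbp2, Igf2 and the dim Ins2 (0.50). Of 17 genes of thyroid hormone and retinoid handling 3 were higher, Ttr, the retinol dehydrogenase Rdh5 (1.98) and the thyroid hormone carrier Slco1c1 (0.55), while the deiodinase Dio2 was at -0.32.

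Genes lower in choroid-rich arrays were few and overlapped in every case. Plin4, a coat protein of lipid droplets, ran from 4.74 through 5.65 to 6.88 in choroid-rich arrays, against 5.28 through 6.55 to 7.32 in choroid-poor arrays, a difference of -0.68. E2f5, a cell cycle repressor of the E2F family, ran from 5.83 through 8.57 to 8.90 in choroid-rich arrays, against 7.09 through 8.36 to 9.21 in choroid-poor arrays, a difference of -0.50. That difference rested on low mouse 7, inconsistent mouse 12 and medium mouse 11 at 5.83, 5.88 and 6.24, while the other 8 choroid-rich arrays lay from 7.90 to 8.90. Lurap1l was at -0.38, the hypoxia factor Hif3a and the glucocorticoid-induced Tsc22d3 both at -0.37, the stress peptide Crh at -0.36, the activin subunit Inhba at -0.35 and the glucocorticoid-responsive Zbtb16 at -0.34. Hif3a, Tsc22d3, Crh and Inhba were above 0 in spike-in batch 1, at 0.10, 0.07, 0.03 and 0.04, and lowest in batch 3, at -0.56, -0.46, -0.40 and -0.47.

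Both directions were followed through the spike-in batches. The groups were cut by the score in every batch, and the probe sets were picked on the pooled difference of the same arrays. Sharing between batches is therefore partly built in and is no replication. Of the 138 probe sets 0.5 or more higher, 99 were so within each of the 3 batches and 137 had the same sign in all 3. Ecrg4 was 4.07, 3.66 and 4.02 higher in batches 1, 2 and 3. Of the 72 probe sets 0.25 or more lower, 2 were so within each batch and 46 had the same sign in all 3. At the same limit of 0.25, 387 probe sets were higher, of which 231 were so within each batch and 372 had the same sign in all 3. Over all 22519 probe sets, which were not picked by a cut, 13.9% were higher in all 3 batches and 19.5% were lower in all 3. Plin4 differed by -0.09, -0.09 and -0.89, and E2f5 by -0.15, 0.35 and -0.97 in batches 1, 2 and 3.

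**Figure D4:**
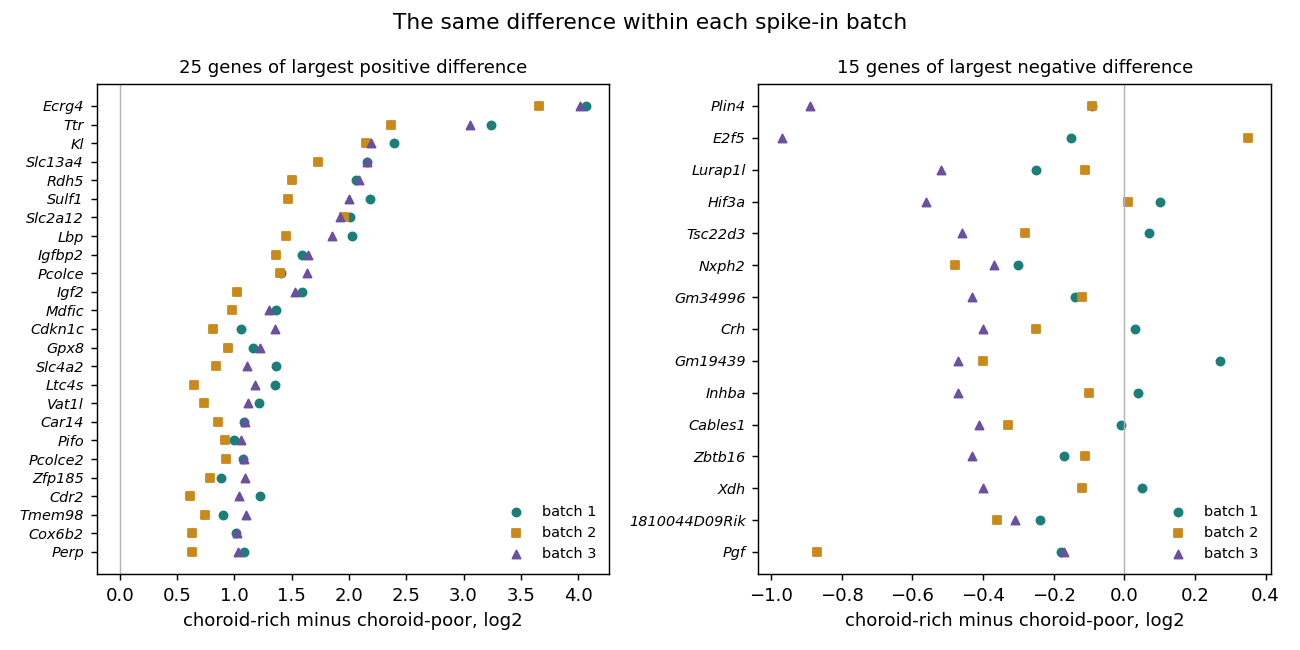
For the 25 genes of largest positive (left) and the 15 of largest negative difference (right) among those that passed the brightness filter, the choroid-rich minus choroid-poor difference (x axes, log2) is drawn within each spike-in batch, 3 choroid-rich among 7 arrays in batch 1, 2 among 10 in batch 2 and 6 among 24 in batch 3. For Ecrg4 the positive differences lie near each other, at 4.07, 3.66 and 4.02. Others spread more, such as Ltc4s at 1.35 in batch 1 and 0.65 in batch 2. Several negative differences, such as E2f5 at -0.15, 0.35 and -0.97, change sign.

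The cognition labels were not used to choose the groups, so label contrasts can be tested. The score itself ran from 5.48 to 5.96 in high mice (mean 5.82 ± 0.20, SD, n = 5), from 5.60 to 9.43 in medium mice (6.87 ± 1.57, n = 12) and from 5.24 to 9.47 in low mice (7.09 ± 1.69, n = 8). The spread within medium and low mice came from their 4 and 3 choroid-rich arrays. In limma on the 25 arrays, 22519 probe sets gave 2 calls for high minus low at an adjusted p under 0.05 (0.00888%), 7 for high minus medium (0.0311%) and 0 for medium minus low (0%, with 698 at an unadjusted p under 0.05). The 7 calls became 0 without any one of medium mice 4, 7 and 10 and high mice 2, 3 and 4, and 16 without medium mouse 3. None of the 77 higher genes that passed the brightness filter, score genes left out, was called in any of the 3, where 12, 5 and 0 had an unadjusted p under 0.05 (15.6%, 6.49% and 0%), beside 8.16%, 13.2% and 3.10% of all probe sets. Without the choroid-rich arrays, which left 5 high, 8 medium and 5 low mice, limma gave 0 calls for high minus low and 0 for high minus medium. Fewer mice also lower the power of the fit, and why the calls were lost was not tested. The higher genes were chosen on arrays among which 0 of 5 high, 4 of 12 medium and 3 of 8 low mice are choroid-rich. Their median SE for high minus low was 0.22, against 0.09 for all probe sets tested. No direction, lack of calls or share of the 77 genes is therefore read as a result here. Ecrg4 ran from 5.36 through 6.02 to 6.37 in high mice, against 5.36 through 6.58 to 10.40 in low mice, a limma difference of -1.54 (SE 0.98, adjusted p = 0.705 by Benjamini-Hochberg). Igf2 differed by -0.80 (SE 0.42, limma adjusted p = 0.641).

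With the score as a covariate in the same limma fit, which takes out of the genes what the score shares with them, Ecrg4 differed by 0.06 (SE 0.15) and Igf2 by -0.20 (SE 0.23). The limma calls were then 4 for high minus low (0.0178%), 9 for high minus medium (0.0400%) and 0 for medium minus low (0%, with 733 at an unadjusted p under 0.05). None was one of the 77 genes, of which 6, 9 and 2 had an unadjusted p under 0.05 (7.79%, 11.7% and 2.60%, beside 7.33%, 12.6% and 3.26% of all probe sets). The 77 genes were picked on groups cut by this same score. Their values in this fit are therefore partly built in, and no result is read from them. Bloc1s2, a subunit of a lysosome-related organelle complex, was 0.35 higher in high than in low mice with the covariate (limma adjusted p = 0.0154) and without it (0.00612). Inip, a partner of single-strand DNA-binding protein, was 0.31 higher with it (adjusted p = 0.0191, limma) and 0.32 without it (0.00612). Over the 37 settings run for high minus low, the adjusted p from limma ran from 0.00253 to 0.369 for Bloc1s2, with 35 under 0.05, and from 0.00370 to 0.369 for Inip, with 32 under 0.05. The 4 calls became 0 without high mouse 3 or 4. Nup98, a nuclear pore protein, and 2900052L18Rik, both lower in high mice, were called for high minus low with the covariate in the fit and not without it. The change between the fits was not itself tested, and labels with few mice and a score spread only among medium and low mice limit what the covariate can separate.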

How the data were processed

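Linear intensities per probe set were deposited for 41 single-colour Affymetrix mouse arrays, as their range shows (0.0112 to 13549). Array medians of 22.4 to 55.2 show that the authors had not brought the intensities to 1 distribution. Per the submitters' processing notes Partek and RMA were used, without versions, and which step made the deposited values is not stated there. Probe sets were named from the platform annotation: of 45037 non-control probe sets 34945 had 1 symbol, 932 several and 9160 none, and only those with 1 symbol were named. No genome build is given, so no coordinates of probe sets are printed.

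Intensities were quantile-normalized and set on log2(intensity + 16). Each gene was read at its brightest probe set. The 22519 probe sets at or above the median mean level were counted and tested, and 11218 of 18193 genes passed. That mean was taken over all 41 arrays, choroid-rich ones included. The score, the groups and the difference of their means were computed in Python 3.11.15 with pandas 2.3.3. Spike-in batches came from Ward clustering of the arrays by 45 control probe sets into 3 clusters, a number that was set. Label contrasts used limma (3.58.1, R 4.3.3), a mean for each label group, Benjamini-Hochberg adjustment and a threshold of 0.05. Both steps were tested on simulated data. Named genes were the 25 highest and 15 lowest passing genes, up to 4 per list with defining markers, the score genes, 15 genes fixed by name, the 5 closest to the score outside the lists, and label calls. The groups, members and lists were chosen with earlier results of these data known. The number of arrays limits precision, and where 1 array stands for 1 mouse, p-values measure the spread between mice.

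Alternatives covered the offset, the normalization, the brightness filter, the size of the choroid-rich group, the score genes, the batch, a replicate block and the omission of each array in turn. Same-numbered high, medium and low arrays did not deviate together, so the numbers were not taken as pairs.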

Additional observations from a re-analysis of the deposited data

How the results depend on the processing

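Every other way of making the score (offsets of 1 and 50, median scaling, no normalization, unit SD per gene, 3 other choroid lists) chose the same 11 of 11 arrays. The count of 138 probe sets 0.5 or more higher was 263 without the filter on dim probe sets and 33 with a stricter filter. Losses moved more. The 3 probe sets 0.5 or more lower were 5 with an offset of 1, 5 without the filter, and 37, 30 and 9 within batches 1, 2 and 3. The 72 probe sets 0.25 or more lower were 186 with an offset of 1, 25 with an offset of 50, 28 without normalization, 244 without the filter, 23 with the stricter filter, 124 with the 8 and 41 with the 14 arrays of highest score taken as choroid-rich, 191 in the low, medium and high groups alone, and 701, 650 and 245 within batches 1, 2 and 3. E2f5 reversed to 0.35 within batch 2. Leaving out 1 array at a time gave 129 to 156 higher, 2 to 5 lower by 0.5 (5 without medium mouse 5) and 63 to 93 lower by 0.25, and 0.34 to 0.41 for the median of the 3 choroid lists. The causes were not tested.

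The limma calls for high minus low, 2 as reported, were 4 with the score as a covariate, 0 without the choroid-rich arrays, 1 with all 41 arrays in the fit, 1 with a variance trend and robust fit, 5 with median scaling and 1 with inconsistent mouse 2 as medium. The 7 calls for high minus medium were 0 without the choroid-rich arrays, 23 with all 41 arrays, 15 with a variance trend, 1 without the filter, 967 with median scaling and 4 with the batch as a block. With the score as a covariate, the 4 calls for high minus low were 1 with a variance trend and 2 without the filter. With the replicate block, high minus low, high minus medium and high minus low with the covariate had 0 calls. Correlations of same-numbered arrays ran from -0.17 to 0.14. Leaving out 1 array gave 2 to 2 calls for high minus low, 0 to 16 for high minus medium (0 without medium mouse 4, 7 or 10 or high mouse 2, 3 or 4, 1 without medium mouse 8, 3 without high mouse 5, 4 without medium mouse 1 or high mouse 1, 12 without low mouse 5 or 6, 15 without medium mouse 12 and 16 without medium mouse 3), 0 to 0 for medium minus low and 0 to 4 for high minus low with the covariate (0 without high mouse 3 or 4, 1 without high mouse 2 and 2 without high mouse 1 or low mouse 8). In high minus low, Ecrg4 reversed to 0.06 and Kl to 0.18 with the covariate, and Kl to 0.07 without the choroid-rich arrays, all uncalled.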
